A study of Saccharomyces cerevisiae with 22 samples.

Results

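Sus1 binding was compared between yeast cells exposed to 37 °C for 15 min and cells kept at 25 °C, in a strain that carries the spt7-1180 allele. Members were all peaks of the 2 lists deposited for this strain, 20179 for heat shock at 37 °C and 18085 for mock treatment at 25 °C, which together are 38264 of the 106828 peaks in the 6 lists of the series. Both groups were Mat a cells of the BY4741 background with leu2-Δ0, his3-Δ1, met15-Δ0 and ura3-Δ0, and both carried SUS1-MYC::HIS3 and spt7-1180::KanMX4. Heat-shocked cells received hot medium that brought the culture abruptly to 37 °C, and were returned to 25 °C for crosslinking. Mock cells were grown in YPD to mid-log phase at 25 °C throughout. The MYC tag was immunoprecipitated and mapped by ChIP-exo, in which an exonuclease trims the precipitated DNA up to the crosslinked protein. The labels call the strain a deletion of SPT7, whereas the strain table of the study gives the truncation, and the labels give 3 replicates for each temperature, whereas the methods of the study give fewer, so that the number behind each list is uncertain. Each temperature had 1 list and no list of a single replicate, so no test between the temperatures was possible and all intervals below cover counting error only.

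Sus1 is shared by the deubiquitination module of SAGA, a coactivator that modifies histones during transcription, and by TREX-2, a complex that couples transcription to mRNA export at the nuclear pore. Spt7 holds SAGA together, and loss of its C-terminal end releases Spt8, which gives a form of the complex similar to SLIK. On a sudden rise in temperature, yeast induces chaperone and other stress genes through Hsf1, Msn2 and Msn4 and represses the genes for ribosomal proteins (RP genes).

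The list for 37 °C was the deeper one. Behind a peak, the commonest local background amounted to 36.3 reads at 37 °C, against 22.2 reads at 25 °C, and peak heights had a median of 99 reads at 37 °C, against 70 reads at 25 °C. For this reason the 18085 peaks with the highest fold enrichment, that is, the summit height divided by the background estimated around it, were taken from each list unless another number is given. In these equal-sized lists, peaks covered 13.5% of the genome at 37 °C and 12.7% at 25 °C. No summit lay in the coding region of LEU2, MET17 or URA3, which are deleted in this strain, at either temperature. The summit farthest along SPT7 was 3294 bp from its start codon at 37 °C and 3500 bp at 25 °C, in a coding region of 3999 bp.

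The sites shown next carry the main contrasts of the heat response: upstream peaks found at 37 °C beside chaperone, proteasome and stress genes, and the strongest site of both lists. Each is the 101 bp centred on the summit, written along the strand of the gene, 5′ to 3′, except for the tRNA gene, which is given whole. They were chosen after their values were seen. Capitals mark the heat shock element bound by Hsf1 (TTCNNGAA or GAANNTTC), the stress response element bound by Msn2 and Msn4 (AGGGG), the proteasome element bound by Rpn4 (GGTGGCAAA), and in the tRNA gene the B box (GTTCNANNC), all but the last searched on both strands.
SSA1, chr1:141735-141835, minus strand: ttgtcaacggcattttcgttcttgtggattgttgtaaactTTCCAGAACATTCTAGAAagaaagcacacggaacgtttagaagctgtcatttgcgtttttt
BTN2, chr7:772105-772205, plus strand: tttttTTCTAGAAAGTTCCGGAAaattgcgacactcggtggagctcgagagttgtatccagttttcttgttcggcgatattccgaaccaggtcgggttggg
HSP42, chr4:806346-806446, plus strand: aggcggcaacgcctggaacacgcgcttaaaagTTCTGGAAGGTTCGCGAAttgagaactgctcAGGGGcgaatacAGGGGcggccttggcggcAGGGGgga
SSA4, chr5:364337-364437, plus strand: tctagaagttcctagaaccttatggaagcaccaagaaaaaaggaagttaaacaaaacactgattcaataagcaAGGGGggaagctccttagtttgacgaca
RPN3, chr5:196828-196928, plus strand: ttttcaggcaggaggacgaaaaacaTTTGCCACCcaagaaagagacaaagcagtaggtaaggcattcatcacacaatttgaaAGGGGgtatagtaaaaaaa
ZWF1, chr14:198272-198372, minus strand: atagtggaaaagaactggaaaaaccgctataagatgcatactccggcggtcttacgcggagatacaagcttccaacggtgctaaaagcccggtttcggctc
Threonine tRNA gene, chr16:744284-744355, plus strand: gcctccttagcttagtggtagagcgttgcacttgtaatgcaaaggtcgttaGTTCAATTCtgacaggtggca
These are bases of the sacCer3 reference, and a match to a motif is a description of the window, not a measured binding site.

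The strongest sites of both lists were genes transcribed by RNA polymerase III, and they were present at both temperatures. The series also has no-tag libraries at both temperatures, for which no peak list was available. Whether these sites, or the coding regions described below, also gave signal without the tag was therefore not tested. tRNA peaks, whose summit fell inside a tRNA gene or no farther than 200 bp away, made up 97 of the 100 strongest peaks at 37 °C and 95 of the 100 strongest at 25 °C. The threonine tRNA gene printed above ranked first in both lists, with a peak at chr16:744223-744388 and a fold enrichment of 19.1 at 37 °C, and a peak at chr16:744226-744387 and a fold enrichment of 19.7 at 25 °C. Of the 275 nuclear tRNA genes, 265 (96.4%, 95% interval 93.4 to 98.0) had a summit within this distance at 37 °C and 269 (97.8%, 95.3 to 99.0) at 25 °C. All 265 found at 37 °C were also found at 25 °C, 4 were found at 25 °C alone and 6 in neither list. The strongest summit lay before the 5′ end of the tRNA gene in 237 of 265 cases at 37 °C and 236 of 269 at 25 °C, at a median distance of 12 bp at 37 °C and 14 bp at 25 °C. A B box was found in 270 of the 275 genes (98.2%). Order among the strong sites differed between the lists. The tRNA gene SUF5 had a fold enrichment of 18.2 and rank 4 at 37 °C, against 6.77 and rank 163 at 25 °C, whereas SUP16 had 12.1 and rank 55 at 37 °C, against 16.7 and rank 3 at 25 °C. Of 5 other genes of RNA polymerase III, 4 had a peak among those compared at both temperatures. SCR1, the RNA of the signal recognition particle, ranked 6 at 37 °C and 53 at 25 °C. SNR6, the U6 spliceosomal RNA, ranked 167 at 37 °C and 17 at 25 °C, and the snoRNA gene SNR52 ranked 10 at 37 °C and 12 at 25 °C. RPR1, the RNA of RNase P, ranked 179 at 37 °C and 370 at 25 °C. RNA170 had only weak peaks at 37 °C, the stronger with a fold enrichment of 1.65 and rank 18904, which is outside the 18085 peaks compared, and no peak at 25 °C. The only protein-coding site among the 100 strongest at 37 °C was the end of SSA1, which encodes a cytosolic Hsp70, at rank 88. Its peak at chr1:139223-139775 ran into the neighbouring tRNA gene TRN1 (chr1:139152-139254), although its summit lay in SSA1, and the part of the tRNA gene in it was not tested. At 25 °C the protein-coding sites among the 100 strongest were RPS11A at rank 69 and RPS13 at rank 92, both genes of the small ribosomal subunit.

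Peak presence agreed less between temperatures than these leading sites did. Of 18085 peaks at 37 °C, 8592 overlapped a 25 °C peak by at least 1 bp (47.5%, 46.8 to 48.2), and of 18085 peaks at 25 °C, 8772 overlapped a 37 °C peak (48.5%, 47.8 to 49.2). Among the 100 strongest of each list, 74% of the 37 °C peaks and 75% of the 25 °C peaks were shared. Among the 1000 strongest these shares were 29.4% at 37 °C and 29.6% at 25 °C. Without tRNA sites, the 500 strongest peaks shared 8.40% at 37 °C (6.27 to 11.2) and 8.20% at 25 °C (6.10 to 10.9). Most strong peaks of one temperature still overlapped a weaker peak of the other: 67.2% of these 500 at 37 °C and 71.0% of the 500 at 25 °C overlapped some deposited peak of the other list. Where peaks overlapped, their summits lay a median of 33 bp apart, and 66.6% lay within 50 bp.

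**Figure D1:**
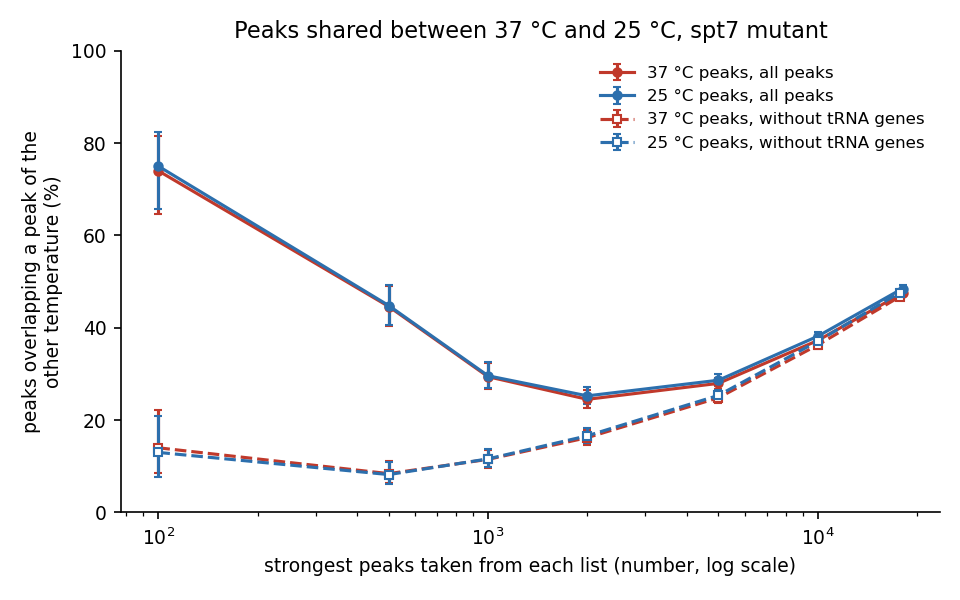
Share of peaks (%) that overlap a peak of the other temperature, against the number of strongest peaks taken from each list (log scale), for 37 °C (red) and 25 °C (blue), with all peaks (solid) or without tRNA sites (dashed). Bars are 95% Wilson intervals. The solid lines begin at 74% and 75% for 100 peaks, and the dashed lines at 14% and 13%.

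Position classes hardly differed with temperature. Coding regions held 83.6% of the summits at 37 °C (83.0 to 84.1) and 83.8% at 25 °C (83.2 to 84.3), and occupied 70.8% of the genome. The 500 bp before start codons held 13.5% of the summits at 37 °C and 13.6% at 25 °C, a difference of -0.06 percentage points (-0.76 to 0.65), and covered 21.3% of the genome. Divergent upstream regions held 4.58% at 37 °C and 4.68% at 25 °C, and convergent intergenic regions 2.15% at 37 °C and 2.27% at 25 °C. Tandem intergenic regions held 7.40% at 37 °C (7.03 to 7.79) and 6.80% at 25 °C (6.44 to 7.18). The order turned among the 1000 strongest peaks, where tandem regions held 3.70% at 37 °C (2.70 to 5.06) and 6.10% at 25 °C (4.78 to 7.76), and among the 5000 strongest it was 5.56% at 37 °C and 6.04% at 25 °C. In or near tRNA genes lay 1.95% at 37 °C and 2.06% at 25 °C, a difference of -0.11 points (-0.40 to 0.18). Within coding regions of at least 1000 bp, the last decile of the length held 11.4% of the summits at 37 °C and 10.6% at 25 °C, and the first decile 8.47% at 37 °C and 9.31% at 25 °C. The median position of an upstream summit relative to the start codon was -317 bp at 37 °C and -316.5 bp at 25 °C. Very wide peaks were commoner at 37 °C, where 46 of the 18085 peaks spanned at least 500 bp, against 9 at 25 °C. The median width was 70 bp at 37 °C and 69 bp at 25 °C. Whether the greater depth at 37 °C widened peaks or joined neighbouring ones was not tested. Among the widest at 37 °C were peaks in PDC1, a pyruvate decarboxylase (1634 bp), in SSC1, the mitochondrial Hsp70 (1621 bp), and in HSP82, an Hsp90 chaperone (1391 bp). The widest at 25 °C was 1057 bp long and lay in YEF3, a translation elongation factor.

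Peaks covered more of the coding region of most chaperone genes at 37 °C than at 25 °C. Of 42 chaperone genes, the covered share was at least 10 percentage points higher at 37 °C in 24 and at least 10 points lower in 4, whereas over all 6002 protein-coding genes 17.9% were higher and 16% lower by this measure. The median covered share of the 42 genes was 33.8% at 37 °C and 18.2% at 25 °C, and the median difference was 15.9 points. Over all genes the median covered share was 11.8% at 37 °C and 12% at 25 °C, with a median difference of 0 points. The list called chaperone genes here is broader than chaperones in the strict sense, and also holds HSP30, HSP150 and MBF1. At 16593 peaks a list, HSP150 was covered over 41.7% at 37 °C and 0% at 25 °C. MBF1 had 45.6% at 37 °C and 17.8% at 25 °C, and HSP30 had 34.5% at 37 °C and 37.3% at 25 °C. Counts and medians without HSP30, HSP150 and MBF1 were not computed.

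Several of the chaperones were almost filled. SSC1 was covered over 96.8% of its coding region at 37 °C and 36.0% at 25 °C. At 37 °C a single peak of 1621 bp at chr10:519611-521231 ran over most of the gene, where 25 °C had 5 separate peaks of 50 to 203 bp. HSP82 was covered over 94.3% at 37 °C and 35.0% at 25 °C, and its strongest peak had a fold enrichment of 9.26 and rank 107 at 37 °C, against 5.04 and rank 446 at 25 °C. Most of the cover at 37 °C came from another, weak peak of 1391 bp, with a fold enrichment of 1.99 and rank 15375. The lowest fold enrichment among the 37 °C peaks compared was 1.74. HSC82, the constitutive Hsp90, was covered over 90.1% at 37 °C and 51.1% at 25 °C. BTN2, which sorts misfolded proteins, was covered over 87.9% at 37 °C and 33.7% at 25 °C, with a peak of 977 bp at 37 °C. HSP82 with HSC82, and SSA1 with SSA2, are near-identical pairs, and reads may have been shared between copies. HSP104, the disaggregase, held 9 summits over 61.6% of its coding region at 37 °C, against 2 summits over 5.76% at 25 °C, and the strongest peak had a fold enrichment of 4.53 at 37 °C and 1.88 at 25 °C. SSA4, a heat-inducible Hsp70, was covered over 43.1% at 37 °C and 2.54% at 25 °C. HSP42, a small heat shock protein, was covered over 32.3% at 37 °C and not covered at 25 °C. The co-chaperones SIS1 (77.8% at 37 °C, 42.3% at 25 °C), YDJ1 (71.1% at 37 °C, 38.7% at 25 °C) and SSE1 (65.2% at 37 °C, 13.3% at 25 °C) went the same way. The 4 genes that were at least 10 points lower at 37 °C were CUR1 (19.0% at 37 °C, 50.9% at 25 °C), SBA1 (0% at 37 °C, 25.2% at 25 °C), CNS1 (12.2% at 37 °C, 27.0% at 25 °C) and HSP12 (49.1% at 37 °C, 60.3% at 25 °C).

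**Figure D2:**
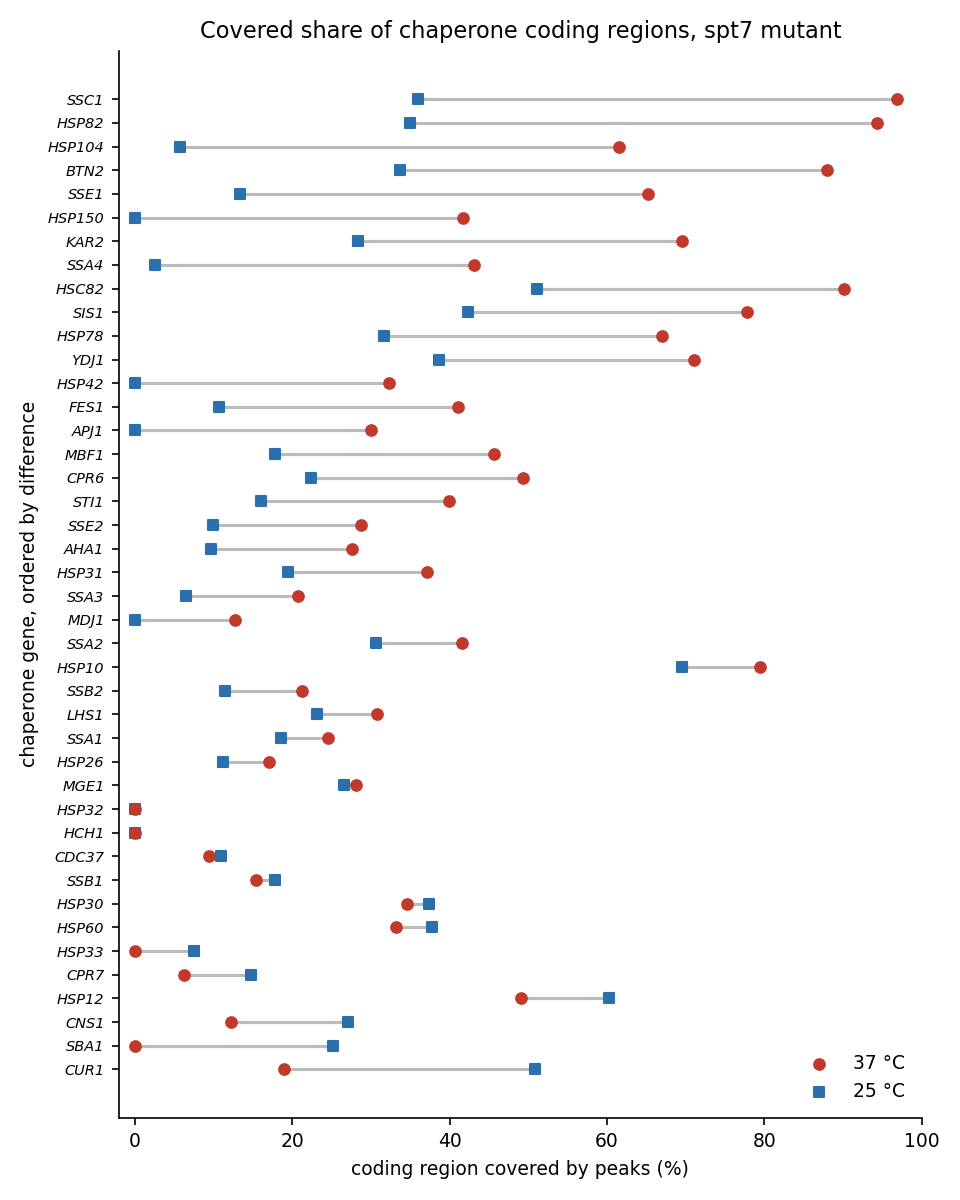
Share of the coding region covered by peaks (%) in each of 42 chaperone genes at 37 °C (red circles) and 25 °C (blue squares), ordered by the difference. In 24 genes the red circle lies at least 10 percentage points to the right of the blue square, with SSC1 at 96.8% and 36.0% on top.

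RP genes went the other way. Of 137 RP genes, 61 were covered at least 10 points less at 37 °C (44.5%, against 16% of all genes). At least 10 points more were covered in 26 (19.0%, close to the 17.9% of all genes). Their median covered share was 21.0% at 37 °C and 31.7% at 25 °C, with a median difference of -6.60 points. RPS28A was covered over 13.7% at 37 °C and 88.2% at 25 °C, RPL29 over 0% at 37 °C and 72.2% at 25 °C, and RPL10 over 28.1% at 37 °C and 70.1% at 25 °C. The members with the largest difference in the opposite direction were RPL12A (78.1% at 37 °C, 26.3% at 25 °C), RPS29B (67.3% at 37 °C, 18.1% at 25 °C) and RPS31 (75.8% at 37 °C, 30.3% at 25 °C). Many RP genes have a near-identical second copy, so that values of single copies are uncertain. Among the 5000 strongest peaks of each list the median difference of RP genes was 0 points, with 26 genes higher and 38 lower by at least 10 points, beside 639 higher and 542 lower of all 6002 genes at that setting.

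The mean profile along the genes differed between these lists. In chaperone genes, decile 5 of the coding region was covered over 53.6% at 37 °C and 25.2% at 25 °C, and decile 1 over 27.9% at 37 °C and 22.7% at 25 °C. The first 100 bp after the stop codon of chaperone genes were covered over 19.6% at 37 °C and 4.5% at 25 °C, and the 201 to 300 bp before the start codon over 15.8% at 37 °C and 4.4% at 25 °C. In RP genes, 9 of the 10 deciles of the coding region were covered less at 37 °C. The widest gap was in decile 3, with 14.7% at 37 °C and 29.2% at 25 °C, and decile 7 was covered over 32.8% at 37 °C and 41.9% at 25 °C. Decile 10 was covered over 35.0% at 37 °C and 40.6% at 25 °C. The exception was decile 9, with 43.0% at 37 °C and 40.6% at 25 °C. Averaged over all genes, the widest gap of any interval was in decile 9, with 18.7% at 37 °C and 16.2% at 25 °C.

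**Figure D3:**
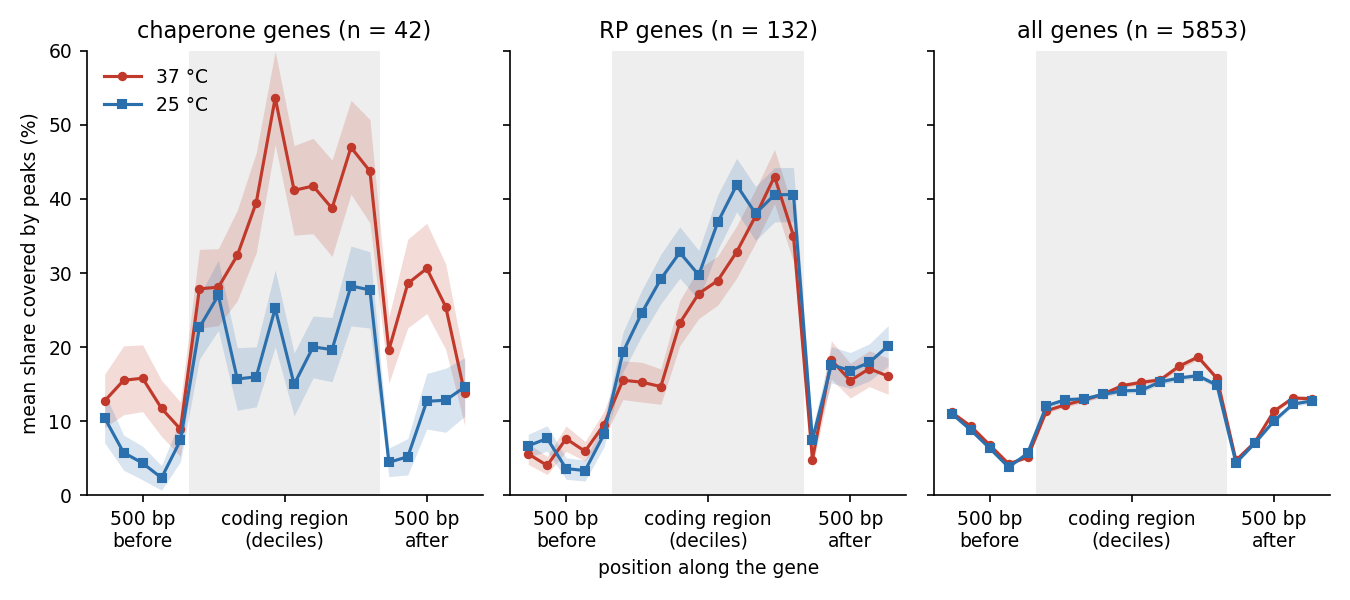
Mean share covered by peaks (%) along chaperone genes (n = 42), RP genes (n = 132) and all genes (n = 5853), at 37 °C (red) and 25 °C (blue), in 100 bp steps over the 500 bp before the start codon, deciles of the coding region (grey) and 100 bp steps over the 500 bp after the stop codon. Bands are the standard error over genes, which are not replicates. The red line is above the blue one over most of the chaperone profile, and below it in 9 of the 10 deciles of the RP coding regions.

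Chaperone, proteasome and stress regulator genes more often had an upstream peak at 37 °C than at 25 °C. An upstream summit, counted over 500 bp ahead of the start codon, was found in 2240 of 6002 genes at 37 °C (37.3%) and 2278 at 25 °C (38.0%), a difference of -0.63 points (-2.09 to 0.82), and 16.3% of the genes had one at 37 °C alone and 16.9% at 25 °C alone. Of 42 chaperone genes, 24 had an upstream summit at 37 °C and 13 at 25 °C, a difference of 26.2 points (6.33 to 46.1). At 37 °C alone there were 16 and at 25 °C alone there were 5. This difference was 7.14 points (-9.54 to 23.8) when the upstream region was extended to 1000 bp. Of 33 proteasome genes, with RPN4 counted among them, 16 had an upstream summit at 37 °C and 6 at 25 °C, a difference of 30.3 points (10.6 to 50), and it was 9.09 points (-8.45 to 26.6) with an upstream region of 300 bp. Among the 5000 strongest peaks it was 9.09 points (-3.82 to 22), with 5 genes at 37 °C and 2 at 25 °C. Of 11 regulators of the stress response, 6 had one at 37 °C and 2 at 25 °C, a difference of 36.4 points (7.94 to 64.8). Among the 5000 strongest peaks these were 1 at 37 °C and 0 at 25 °C. Over all 6002 genes, 663 had an upstream summit at 37 °C and 701 at 25 °C at that setting. RP genes had one in 55 of 137 cases at 37 °C and 44 at 25 °C, a difference of 8.03 points (-2.10 to 18.2). Within 300 bp this was 45 RP genes at 37 °C and 24 at 25 °C, a difference of 15.3 points (6.08 to 24.6). Over all 6002 genes, 1169 had a summit within 300 bp at 37 °C and 1181 at 25 °C. The RP difference was -1.46 points (-10.7 to 7.81) with 1000 bp upstream, from 99 genes at 37 °C and 101 at 25 °C. Among the 5000 strongest peaks it was 0.73 points (-7.49 to 8.95), from 17 RP genes at 37 °C and 16 at 25 °C. Ribosome biogenesis genes had one in 29 of 77 cases at 37 °C and 36 at 25 °C. An upstream region can lie in the coding region of a neighbour, and 1 summit can count for both genes of a divergent pair.

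**Figure D4:**
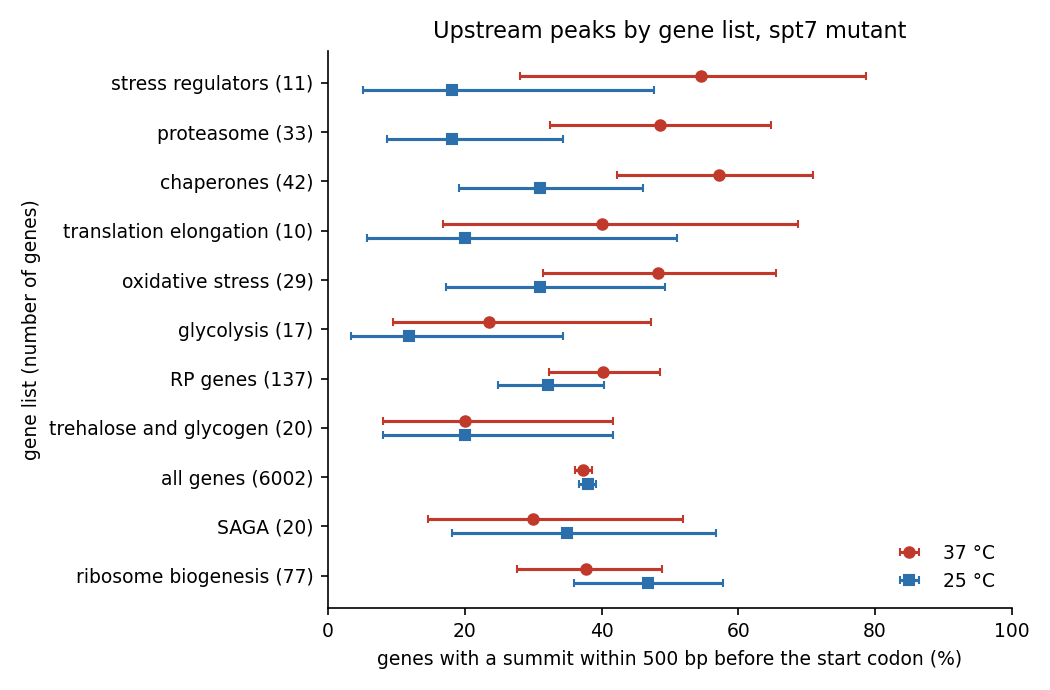
Share of genes (%) with a summit in the upstream 500 bp at 37 °C (red circles) and 25 °C (blue squares), for gene lists of at least 10 members, with the number of genes in brackets. Bars are 95% Wilson intervals. Chaperone genes had 24 of 42 at 37 °C and 13 of 42 at 25 °C, and proteasome genes 16 of 33 at 37 °C and 6 of 33 at 25 °C.

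The upstream peaks of the chaperone genes were of moderate strength. BTN2 had a peak of 350 bp at chr7:771999-772348, 299 bp before its start codon, with a fold enrichment of 3.60 and rank 1189 at 37 °C, and none at 25 °C. Its window printed above begins with 4 alternating GAA and TTC blocks of a heat shock element. HSP42 had a peak of 244 bp with a fold enrichment of 4.24 and rank 477, 225 bp before its start codon at 37 °C, whereas at 25 °C its peak was 45 bp wide, 418 bp before the start codon, with a fold enrichment of 2.75 and rank 8310. These peaks of HSP42 overlapped each other. The 37 °C window held a heat shock element and several stress response elements. SSA1 had a 37 °C peak 354 bp before its start codon, with a fold enrichment of 3.17, over a heat shock element, and none at 25 °C. That summit also lies 389 bp before EFB1, the divergent neighbour, which encodes a translation elongation factor. SSA4 had a 37 °C peak at 202 bp with a fold enrichment of 2.47 and a stress response element in its window. HSP82 is an exception, with no upstream summit at 37 °C and one 416 bp before the start codon at 25 °C, with a fold enrichment of 2.63. SBA1, a co-chaperone of Hsp90, had upstream peaks of 6.92 at 37 °C and 6.12 at 25 °C that lie beside a tRNA gene, and without tRNA peaks 23 chaperone genes had an upstream summit at 37 °C and 12 at 25 °C. Of the 16 chaperone genes with an upstream summit at 37 °C alone, 12 held a heat shock element of 2 inverted units somewhere in the 500 bp, against 31 of all 42 chaperone genes and 35.2% of all genes. In windows around upstream summits the same element was found in 7.74% at 37 °C alone (6.22 to 9.59, n = 969), in 8.27% at 25 °C alone (6.65 to 10.2, n = 907) and in 8.12% of all 18415 upstream windows of the same length.

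Genes of protein degradation were next. RPN4, the transcription factor of the proteasome genes, was covered over 72.4% of its coding region at 37 °C and 18.7% at 25 °C. It also had a 37 °C peak 259 bp before its start codon, with a fold enrichment of 3.76 and rank 916, and none there at 25 °C. RPN1, a subunit of the regulatory particle, had an upstream peak with a fold enrichment of 3.80 at 37 °C and none at 25 °C, and RPN3, another subunit, had one of 2.09 over the proteasome element printed above. Of the 12 proteasome genes with an upstream summit at 37 °C alone, 10 held that element in the 500 bp, against 27 of all 33 and 1.65% of all genes. The coding regions of the proteasome list showed no such difference. Of its 33 genes, 7 were at least 10 points higher and 7 at least 10 points lower at 37 °C. This was 21.2% each way, beside 17.9% higher and 16% lower over all genes. UBI4, the polyubiquitin gene induced by stress, had a 37 °C peak 318 bp before its start codon with a fold enrichment of 4.62 and rank 327, which no 25 °C peak overlapped, while a weaker peak nearer the start codon was found at both temperatures, 2.15 at 37 °C and 2.28 at 25 °C. ZWF1, the first enzyme of the pentose phosphate pathway, had the largest positive difference of upstream rank (37 °C minus 25 °C) of all genes, from a peak at chr14:198273-198364 with a fold enrichment of 5.12 and rank 266 at 37 °C and no upstream peak at 25 °C. DFG16 (4.59), the glutathione transferase gene GTO3 (4.29) and the RP genes RPL6B (4.19) and RPL40A (4.16, tied with MLP2) followed by this measure, also with no upstream peak at 25 °C. The opposite order was led by UBX3 (6.20 at 25 °C), the mRNA export helicase gene DBP5 (6.03), SHR5 (5.30), VAC7 (5.21) and YHR173C (5.20), none of which had an upstream peak at 37 °C. The summit counted for UBX3 lies in the coding region of its neighbour RAM1, and the same peak is named for RAM1 below.

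Metabolic genes were mixed, and their counts stand beside 17.9% of all genes that were higher and 16% that were lower at 37 °C by the same measure. Of 20 genes of trehalose and glycogen metabolism, 8 were covered at least 10 points more and 1 at least 10 points less at 37 °C, with PGM2, a phosphoglucomutase, at 50.2% at 37 °C and 23.6% at 25 °C and TPS2, a trehalose phosphate phosphatase, at 61.2% at 37 °C and 36.2% at 25 °C. The one that was lower was the glycogen phosphorylase gene GPH1, with 7.3% at 37 °C and 24.0% at 25 °C. Of 17 glycolytic genes, 6 were higher and 4 lower. HXK1, a hexokinase, was covered over 50.1% at 37 °C and 0% at 25 °C, and TPI1, triose phosphate isomerase, over 0% at 37 °C and 60.5% at 25 °C from peaks of 154 and 298 bp. CDC19, the main pyruvate kinase, was covered over 77.8% at 37 °C and 52.0% at 25 °C. Of 77 ribosome biogenesis genes, 6 were higher and 19 lower, with a median difference of -2.35 points. The oxidative stress list (5 higher and 6 lower of 29) was close to the genome as a whole. CKB2, a casein kinase subunit, had the largest positive difference of all coding regions of at least 500 bp, 67.2% at 37 °C against 0% at 25 °C, followed by SSC1, HSP82, UPS2 and HSP104. The largest negative differences after that of TPI1 were those of FCF1 (0% at 37 °C, 58.2% at 25 °C), YPT53 (11.2% at 37 °C, 67.3% at 25 °C), RPA34 (0% at 37 °C, 55.6% at 25 °C) and GSP1 (11.2% at 37 °C, 65.0% at 25 °C).

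The strongest peaks of one temperature alone had different neighbours. At 37 °C, the 10 strongest peaks that no deposited 25 °C peak overlapped included 2 in SSA1 (chr1:140426-140491, fold enrichment 8.19, rank 144, and chr1:140612-140671, 6.76), 1 in SSA2 (6.16) and 1 in RPN4 (5.98). Another lay at chr12:63848-63961 with a fold enrichment of 7.62, 186 bp after the stop codon of UBI4 and 231 bp before the start codon of VPS13. The remaining ones lay in AGE1, FOL1, FKS1 and PIB1 and upstream of ZWF1. At 25 °C, the 10 strongest peaks that no deposited 37 °C peak overlapped lay in the coding regions of CSF1 (chr12:311665-311737, fold enrichment 7.11, rank 148), NFS1, CDC25, RPS9B, SSK2, RAM1, RTT10, ADH2, YEF3 and GCV2. None of these 10 genes is in the chaperone or proteasome lists. Those lists hold only 42 and 33 of the 6002 genes, so most sets of 10 genes would hold none. The nearest 25 °C peak was 43 to 690 bp from the 37 °C sites, and the nearest 37 °C peak 31 to 789 bp from the 25 °C sites, so that a neighbouring peak of the other list was often close.

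The study names RPL11 without saying which of its near-identical copies, RPL11A or RPL11B, is meant. RPL11A had a 37 °C peak 269 bp before its start codon, with a fold enrichment of 2.68, and 20.0% of its coding region covered, and neither at 25 °C. RPL11B had upstream peaks at both temperatures, 15 bp before its start codon with a fold enrichment of 2.63 at 37 °C, and 258 bp before it with 1.61 at 25 °C. Of the other genes that the study treats singly, GAL1, the galactokinase of the galactose pathway, was covered over 42.1% at 37 °C and 28.1% at 25 °C, ADH1, an alcohol dehydrogenase, over 54.9% at 37 °C and 36.0% at 25 °C, SPB1, a ribosome biogenesis methyltransferase, over 37.1% at 37 °C and 39.1% at 25 °C, and ARG1, of arginine synthesis, over 8.95% at 37 °C and 21.9% at 25 °C. No peak covered SUS1 or SPT8 at either temperature, and HIS3 had 1 summit in each list.

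The other strains were set beside the spt7-1180 lists at 16593 peaks a list, the size of the smallest list of the series. In spt7-1180, 46.0% of the 37 °C peaks overlapped a 25 °C peak (45.2 to 46.8), against 38.8% in the spt8 deletion (38.1 to 39.5) and 34.1% in the wild type (33.4 to 34.8). The order was the same among the 500 strongest peaks, with 44.6% in spt7-1180, 29.0% in the spt8 deletion and 16.6% in the wild type. Taking tRNA peaks out of these 500 left 269 in spt7-1180, 296 in the spt8 deletion and 415 in the wild type. The shares were then 8.92% in spt7-1180 (6.07 to 12.9), 11.8% in the spt8 deletion and 8.67% in the wild type (6.33 to 11.8), and their intervals overlapped. In larger sets the order held without tRNA peaks. Among the 5000 strongest it was 24.2% in spt7-1180, 20.2% in the spt8 deletion and 17.3% in the wild type. At 16593 peaks a list it was 45.1% in spt7-1180, 37.8% in the spt8 deletion and 33.3% in the wild type. Chaperone coding regions were covered at least 10 points more at 37 °C in 24 of 42 genes in spt7-1180, where 17.6% of all genes were, in 31 of 42 in the spt8 deletion, where 19.9% of all genes were, and in 22 of 42 in the wild type, where 13.5% of all genes were. RP coding regions were covered at least 10 points less in 58 of 137 genes in spt7-1180, where 15.0% of all genes were, in 32 of 137 in the spt8 deletion, where 12.6% of all genes were, and in 54 of 137 in the wild type, where 18.2% of all genes were. The median difference of chaperone genes was 17.1 points in spt7-1180, 18.3 points in the spt8 deletion and 11 points in the wild type. That of RP genes was -7.00 points in spt7-1180, 0 points in the spt8 deletion and -5.94 points in the wild type. Upstream summits at 37 °C and 25 °C were found in 23 and 12 of 42 chaperone genes in spt7-1180. In the spt8 deletion these counts were 33 and 25, and in the wild type 27 and 19. The shares over all genes were 34.6% and 35.1% in spt7-1180. They were 38.6% and 41.8% in the spt8 deletion, and 41.8% and 39.1% in the wild type. Of 33 proteasome genes, 14 had an upstream summit at 37 °C and 5 at 25 °C in spt7-1180. These counts were 14 and 15 in the spt8 deletion, and 18 and 14 in the wild type. Of 11 stress regulators, 5 had one at 37 °C and 2 at 25 °C in spt7-1180. These counts were 4 and 6 in the spt8 deletion, and 2 and 2 in the wild type. Differences between strains were not tested, because each had 1 list per temperature. Of 250 peaks among the 1000 strongest at 37 °C that no 25 °C peak of spt7-1180 overlapped, 62.4% (56.3 to 68.2) overlapped a 37 °C peak of the spt8 deletion and 43.2% (37.2 to 49.4) a 25 °C peak of that strain. In the wild type 46.0% overlapped a 37 °C peak and 44.4% a 25 °C peak. Of 224 peaks among the 1000 strongest at 25 °C that no 37 °C peak of spt7-1180 overlapped, 44.2% (37.8 to 50.7) overlapped a 37 °C peak of the spt8 deletion and 41.1% (34.8 to 47.6) a 25 °C peak of that strain, and in the wild type 34.8% overlapped a 37 °C peak and 42.9% a 25 °C peak. Single genes differed: TPI1 was covered over 0% at 37 °C and 39.9% at 25 °C in spt7-1180, over 48.1% at 37 °C and 51.5% at 25 °C in the spt8 deletion, and over 44.4% at 37 °C and 20.2% at 25 °C in the wild type. CKB2 was covered over 67.2% at 37 °C and 0% at 25 °C in spt7-1180, 8.62% at 37 °C and 9.52% at 25 °C in the spt8 deletion, and 16.3% at 37 °C and 29.6% at 25 °C in the wild type.

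**Figure D5:**
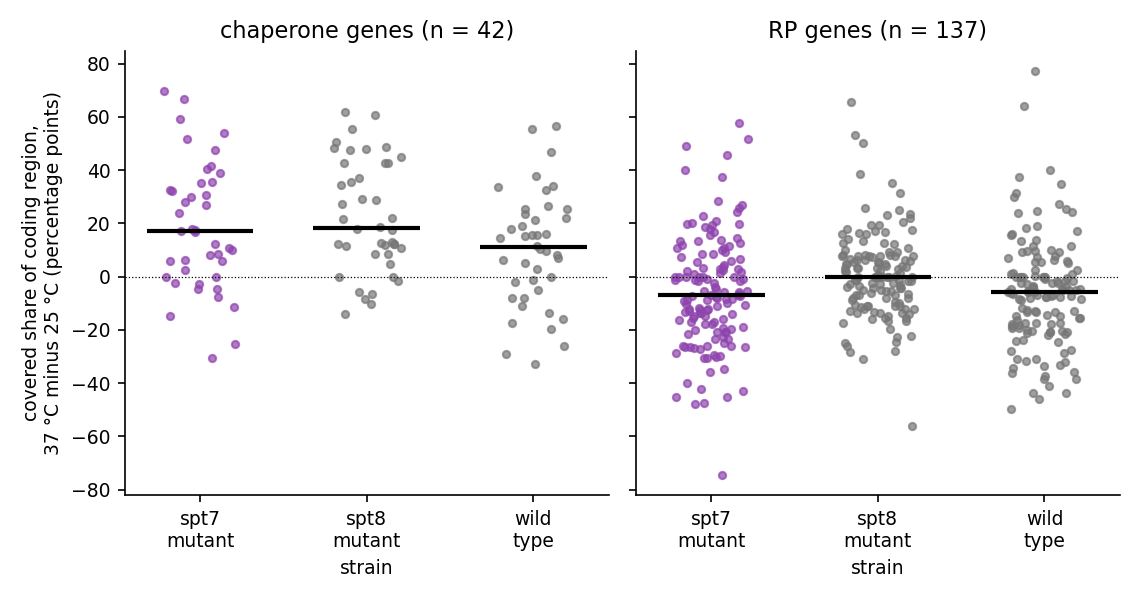
Difference of the covered share of the coding region, 37 °C minus 25 °C (percentage points), for each chaperone gene (left, n = 42) and RP gene (right, n = 137) in the spt7 mutant, the spt8 mutant and the wild type, at 16593 peaks a list. Black bars are medians, 17.1, 18.3 and 11 points for chaperone genes and -7.00, 0 and -5.94 points for RP genes.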

How the data were processed

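Sus1-MYC ChIP-exo was analysed in spt7-1180 cells at 37 °C and 25 °C, and the lists of the other strains served as a comparison. The reads were mapped by the authors to sacCer3 with BWA, whose version is 0.6.2 in the submitters' processing notes, which also name CASAVA 1.7. The methods of the study give another BWA version. Which peak caller and control were used, and how replicates were combined, is not given in the sources used here, and the layout is that of MACS2. For each peak the authors deposited a fold enrichment, a ratio over the local background, its -log10 p and -log10 q, a display score that was not used, and the summit as an offset from the start. The no-tag libraries, which had no peak list, were not used here.

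Peak heights and backgrounds in reads were obtained by solving fold enrichment and -log10 p for a whole-number height with a Poisson background, which succeeded for 99.7% of the 37 °C peaks and 99.97% of the 25 °C peaks. Gene models came from RefSeq for sacCer3 (6002 nuclear protein-coding and 275 tRNA genes), with coding regions from start to stop codon, introns included. A peak was placed by its summit. The covered share of a coding region is the percentage of its bases under a peak, and a difference of at least 10 points was counted. Intervals of shares are 95% Wilson intervals, those of differences are 95% Wald intervals, and both cover counting error only. Named genes were the 10 strongest peaks of 1 temperature, the 5 genes at each end of upstream rank and of covered share, members of the gene lists and the genes the study names. Members of the lists were also named for their covered share after its values were seen. The members and lists were chosen with earlier results of these data known. Overlap and interval functions were tested on simulated data. Computations used Python 3.11.15, numpy 2.4.6, pandas 2.3.3 and scipy 1.17.1.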

Additional observations from a re-analysis of the deposited data

How the results depend on the processing

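No paired analysis was possible because each temperature had 1 pooled list without replicate values, and leaving out a replicate was not possible for the same reason. The share of 37 °C peaks that overlapped a 25 °C peak was 46.1% with all deposited peaks, 28.0% for the 5000 and 29.4% for the 1000 strongest, 43.0% with q under 1e-05, 20.0% with a reciprocal overlap of 50%, 32.5% with summits within 50 bp and 46.7% without tRNA peaks. The share of 25 °C peaks was 52.2%, 28.6%, 29.6%, 49.5%, 20.0%, 32.5% and 47.6% in the same order. The upstream share of summits differed by -0.80 points (37 °C minus 25 °C) among the 5000 strongest. The share of genes with an upstream peak differed by 2.82 points with all deposited peaks and 3.38 points with q under 1e-05, where the deeper 37 °C list contributed more peaks, and by -2.33 points with 1000 bp upstream. For chaperone genes it differed by 2.38 points among the 1000 strongest, with 2 genes at 37 °C and 1 at 25 °C. Over all 6002 genes these counts were 204 at 37 °C and 202 at 25 °C. The tRNA share differed by 2.00 points among the 1000 strongest. Of the other alternatives for these comparisons, 43 stayed within the interval of the value given above, and for the gene lists and covered shares 41 did and 4 did not: the proteasome upstream difference was 9.09 points among the 5000 strongest, 6.06 points (-2.08 to 14.2) among the 1000 strongest and 9.09 points with 300 bp upstream, and the RP difference in covered share was 0 points among the 5000 strongest. The chaperone difference in covered share, whose alternatives were chosen after seeing the data, ranged from 11 to 19.5 points. Without replicate lists the spread between samples is unknown, and more depth lets weaker peaks pass at 37 °C. The effect of depth on peak width was not tested.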
